A study of Homo sapiens with 3 samples.

Results

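DNA methylation was examined around the start sites of the 8 PAX genes PAX1, PAX2, PAX3, PAX5, PAX6, PAX7, PAX8 and PAX9 in Hep3B cells, a human hepatocellular carcinoma line. A CpG, a cytosine followed by a guanine, was assigned to a gene when it lay within 3 kb of the gene's start site in GRCh37 coordinates. It was compared when at least 10 reads covered it in all 3 libraries. Of 1426 CpGs read in any library around these genes, 980 were compared, out of 2238764 compared in the whole series. The study sequenced 1 library of parental Hep3B cells, with no edit and no added agent named in the labels, and 1 library from each of 2 SOX4 knockout derivatives of that line. SOX4 belongs to the SOX transcription factors. Per the study's methods, the knockout lines were made with CRISPR/Cas9 in earlier work and were kept in puromycin. The line numbers 1 and 2 follow the labels, and whether each line is a single clone was not given in the sources used here. The edit itself and the liver identity of the cells were not checked, because the files hold DNA methylation and no expression.

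PAX proteins are transcription factors that bind DNA through a paired domain and direct the formation of organs in the embryo. PAX1 and PAX9 act in the skeleton and the pharyngeal pouches, PAX2, PAX5 and PAX8 in kidney, B cells and thyroid, PAX3 and PAX7 in neural crest and muscle, and PAX6 in eye, brain and pancreas. Genes of this kind often carry CpG-rich start regions that are held silent in adult tissues by Polycomb proteins, and such regions can gain DNA methylation in tumours. None of these roles was measured here.

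The methylation level of a CpG is the percentage of its reads in which the cytosine was protected from bisulfite conversion. The 980 CpGs averaged 28.7% in parental cells, against 21.4% for line 1 and 25.1% for line 2. Their average over both lines, 23.3% ± 2.64 (SD, n = 2), was 5.47 points below parental, where the lines themselves were 3.73 points apart. Over all CpGs of the series the same means were 42.7%, 38.7% and 40.6%, and the knockout mean lay 3.10 points below parental. The parental group has 1 library, so no gene mean has a p-value. An exact permutation test of 3 libraries could not go below p = 0.333.

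All 8 genes had their highest mean level in the parental library, and in all 8 line 2 lay between parental and line 1. The means over all CpGs of the series had the same order, 42.7%, 38.7% and 40.6% in parental, line 1 and line 2. That order is therefore not particular to the PAX genes. PAX8 carried far more methylation than the others, with 89.7% in parental, 53.4% in line 1 and 73.8% in line 2. PAX3 followed with 54.7%, 45.5% and 49.3% in the same order of libraries. PAX1 stood at 39.4%, 28.9% and 35.4%, and PAX7 at 38.9%, 29.3% and 34.7%. These values place PAX1 and PAX7 side by side in every library. PAX5 had 21.7% in parental, 15.7% in line 1 and 17.2% in line 2. The other three genes were low, PAX9 at 13.2%, 9.80% and 12.1%, PAX6 at 12.1%, 10.4% and 10.7%, and PAX2 at 11.5%, 10% and 10.6%. Within line 1, PAX9, PAX2 and PAX6 lay less than a point apart, so their order is not a firm one. The knockout mean lay farther from parental than the knockout lines lay from each other in all 8 genes, in PAX9 only just (2.30 against 2.26 points). Over all CpGs of the series it was likewise 3.10 against 1.94 points. Line 2 alone lay farther from parental than from line 1 in 4 of 8 genes.

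**Figure D1:**
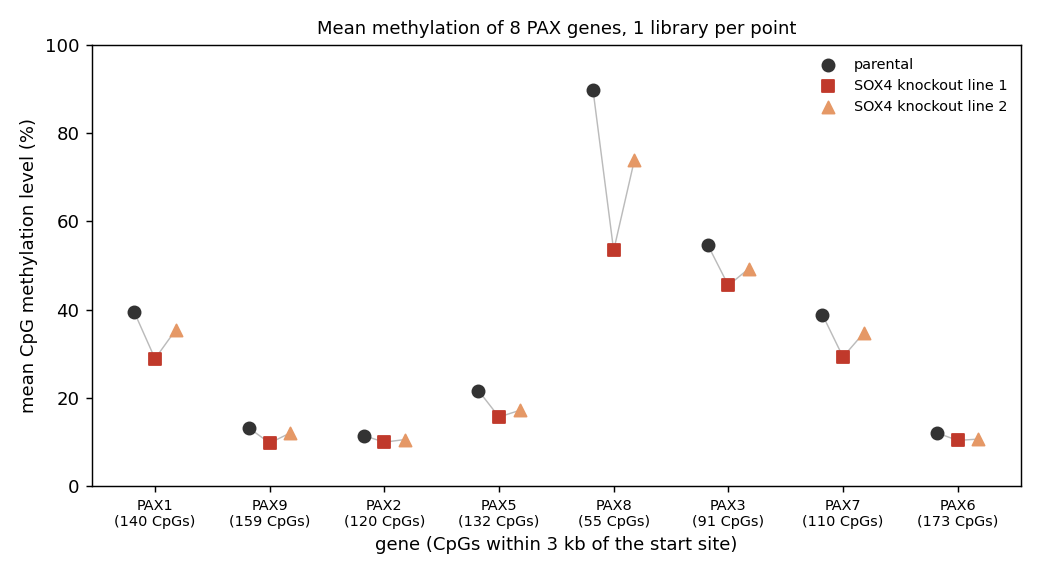
Mean methylation level in percent (y axis) of the compared CpGs of each PAX gene (x axis, number of CpGs in brackets), with 1 point for each library and no error bars because each point is a single library. The parental point is the highest for all 8 genes, line 1 is the lowest, and PAX8 spans 89.7% to 53.4%.

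For single CpGs, the methylated and unmethylated reads of 2 libraries were set against each other with Fisher's exact test (2-sided), and p-values were adjusted by the Benjamini-Hochberg method over all CpGs of the series. Calling a CpG required 25 points or more of difference and an adjusted p below 0.05. Such a call compares 2 libraries and not 2 conditions. In line 1, 84 of the 980 PAX CpGs (8.57%) were called lower than parental and 17 (1.73%) higher, where 4.46% and 0.599% of all CpGs of the series were called lower and higher. In line 2, 5 PAX CpGs (0.510%) were called lower, beside 0.713% in the series. No PAX CpG was called higher in line 2, where the series had 0.0831%. At an unadjusted p under 0.05, 79 PAX CpGs (8.06%) were lower and 24 (2.45%) higher in line 2, beside 5.97% and 1.63% of the series. Of the CpGs compared from line to line, 13 (1.33%) were called lower and 4 (0.408%) higher in line 1 than in line 2. In the series these shares were 1.07% and 0.184%. Both lines were called lower at 3 of the 980 PAX CpGs and higher at none. Over all CpGs of the series, 0.600% were called lower in both lines and 0.0581% higher. Both of these counts share the parental library.

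PAX8 held 29 of the 84 CpGs called lower in line 1. Without PAX8, the mean levels of the other 925 CpGs were 25.1%, 19.5% and 22.2% in parental, line 1 and line 2, with 55 CpGs (5.95%) called lower and 17 (1.84%) higher in line 1. The share called lower was thus nearer to the 4.46% of the series than with PAX8 included. Every gene had a fall called in line 1, but the shares of CpGs differed. There were 13 (9.29%) in PAX1, 13 (8.18%) in PAX9, 12 (10.9%) in PAX7 and 6 (6.59%) in PAX3. PAX5 had 5 (3.79%), PAX6 5 (2.89%) and PAX2 1 (0.833%), all under the 4.46% of the series. The rises were 5 (4.55%) in PAX7, 4 (2.52%) in PAX9, 3 (2.50%) in PAX2 and 2 (1.16%) in PAX6, beside 0.599% of the series. PAX1 (0.714%), PAX3 (1.10%) and PAX5 (0.758%) had 1 each, and PAX8 had none. PAX2 was the only gene with more called rises than falls in line 1.

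**Figure D2:**
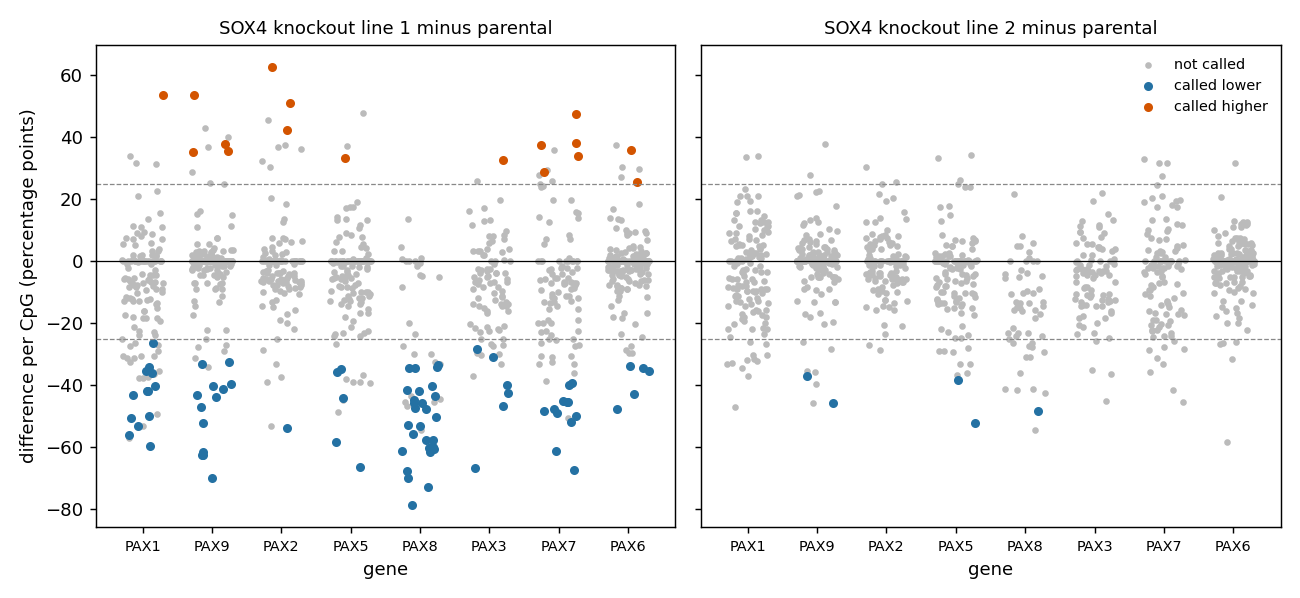
Difference in methylation level from parental of each compared CpG in percentage points (y axis) by gene (x axis, points spread sideways at random), for line 1 on the left and line 2 on the right; dashed lines mark 25 points. Line 1 has 84 CpGs called lower and 17 called higher, while line 2 has 5 called lower and none called higher.

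The parental PAX CpGs were often partly methylated. Levels from 20% to 80% were found at 30.7% of them in parental, 28.4% in line 1 and 34.2% in line 2, beside 19.5%, 18.9% and 20.8% of all CpGs of the series. In DNA pooled from many cells, such a level does not tell how molecules or cells were mixed. Levels over 80% were found at 12.9% of the PAX CpGs in parental, 8.16% in line 1 and 7.24% in line 2, beside 33.6%, 29.7% and 30.6% of all CpGs of the series. At the other end, 236 of the 980 CpGs had no methylated read in parental, 380 in line 1 and 241 in line 2. As a share that is 24.1%, 38.8% and 24.6%, beside 31.9%, 36.5% and 31.7% of all CpGs of the series. Line 1 alone thus had more PAX CpGs with no methylated read. Its median depth over the 980 CpGs was 27.0 reads, beside 26.0 in parental and 34.0 in line 2. By gene, the median depth of line 1 was below that of parental in some, such as PAX2 and PAX5. It was above that of parental in others, such as PAX1, PAX6 and PAX7. The part of read depth in these counts was not tested.

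**Figure D3:**
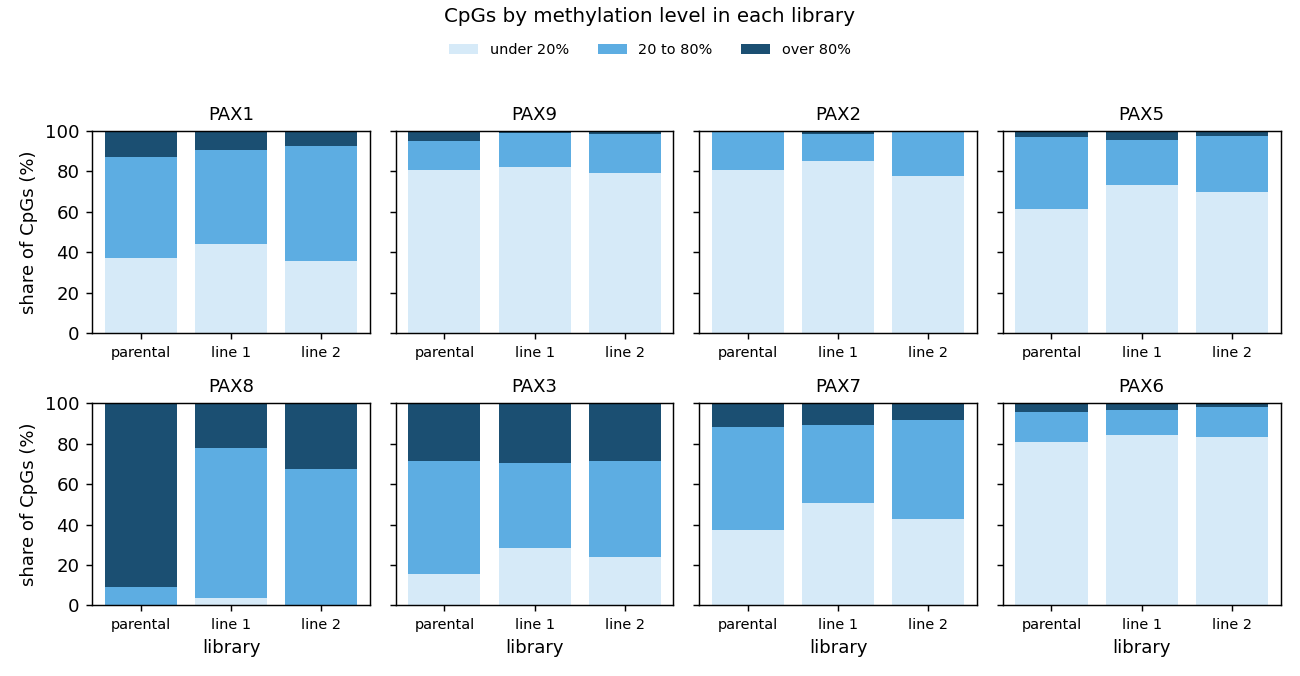
Share of the compared CpGs of each PAX gene in percent (y axis) with a methylation level under 20%, from 20% to 80% and over 80% in each library (x axis). In PAX8 the share over 80% was 90.9% in parental, 21.8% in line 1 and 32.7% in line 2, while PAX9, PAX2 and PAX6 were mostly under 20% in every library.

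PAX1 and PAX9 are close relatives that act in the vertebral column, the thymus and, for PAX9, the teeth. The 140 compared CpGs of PAX1 lie on chromosome 20 between 21683297 and 21689297, and 70 of them were between 20% and 80% in parental. Line 1 was below parental at 88 CpGs and above it at 33, with a median difference of -6.82 points. Line 2 was below parental at 76 and above it at 58, with a median of -2.94 points. The fall in line 1 gathered in 2 blocks, a block being at least 3 CpGs called the same way with no gap over 100 bp, a grouping made after the values were seen. The block from 542 to 708 bp after the start site held 15 CpGs with means of 67.5% in parental, 44.6% in line 1 and 54.0% in line 2, and 5 were called in line 1. The block from -2222 to -2053 bp held 10 CpGs at 37.4%, 15.8% and 27.6%, of which 4 were called. The largest difference of the knockout mean among the PAX1 bins was -13.8 points, over 12 CpGs in the kilobase before the start site at 44.2%, 24.8% and 36.1%. In each block the line 2 mean lay between those of the other libraries, and no CpG there was called in line 2. Blocks here and below were drawn from line 1 calls, so their line 1 differences follow in large part from that choice.

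Within PAX1 the largest fall called in line 1 was at 645 bp, where 27 of 42 reads were methylated in parental (64.3%, exact 95% binomial interval 48.0% to 78.4%). Line 1 had 2 of 42 reads (4.76%, 0.582% to 16.2%) and line 2 had 12 of 44 (27.3%, 15.0% to 42.8%). The adjusted Fisher exact p was 7.66e-07 for line 1 and 0.0737 for line 2. At 1215 bp the order was turned around, with 17 of 42 reads methylated in parental, 31 of 33 in line 1 and 35 of 47 in line 2. That was the rise called in line 1, with an adjusted Fisher exact p of 5.60e-05.

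PAX9, on chromosome 14 between 37123773 and 37129773, had 159 compared CpGs in parts of opposite kind. From 2 to 1 kb before the start site, 45 CpGs had means of 1.51% in parental, 1.92% in line 1 and 1.63% in line 2. These libraries differed by less than a point over a stretch with median depths of 53.0, 55 and 87.0 reads. From 3 to 2 kb before the start site, 20 CpGs stood at 61.5%, 38.5% and 44.9%, the largest difference of the knockout mean among the distance bins of PAX9 (-19.9 points, lines 6.36 points apart). In that bin 8 CpGs were called lower in line 1 and 2 in line 2.

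The promoter of PAX9 in RefSeq (build GRCh38.p14, 300 bases, from 250 before to 50 after the start) holds 19 CpGs. The spacing of the CpGs in a promoter was used to find it among the CpGs of the files, and where RefSeq lists several promoters (2 each for PAX9 and PAX2, 9 for PAX6) the one with the most matched CpGs was used. All 19 were matched in PAX9, with means of 2.02%, 2.81% and 2.08% in parental, line 1 and line 2. A run of 30 bases of it, at chr14:36657353-36657382 on the plus strand, shows what an almost unmethylated PAX promoter looks like, and capitals mark the CpGs measured:
PAX9: caaatgCGCGaataccagcaatccCGctCG
Its 4 CpGs were at 0.877% to 5.83% in parental, 0% to 4.55% in line 1 and 0% to 4.88% in line 2, so the ranges overlapped in all 3 libraries.

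After the PAX9 start site the calls of line 1 went both ways. At 307, 329, 343 and 347 bp the mean level was 52.6% in parental, 2.08% in line 1 and 38.4% in line 2, with line 1 at 0 of 18 and 0 of 24 reads at the first pair of CpGs. At 802, 944, 1309 and 1314 bp line 1 was higher instead. The largest of these rises, at 944 bp, had 20 of 88 reads methylated in parental (22.7%, 14.5% to 32.9%), 32 of 42 for line 1 (76.2%, 60.5% to 87.9%) and 33 of 75 for line 2 (44.0%, 32.5% to 55.9%). Its adjusted Fisher exact p was 1.05e-06 in line 1 and 0.183 in line 2. The PAX9 CpG called lower in both lines was at -2459 bp, with 29 of 31 reads methylated in parental, 17 of 41 in line 1 and 23 of 48 in line 2. The adjusted Fisher exact p was 0.000215 and 0.00525, and the knockout lines differed by 6.45 points there.

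PAX2, PAX5 and PAX8 form the next subgroup. PAX2, needed for the kidney and the optic nerve, had 120 compared CpGs of 219 read on chromosome 10 between 102502468 and 102508468. Its mean levels of 11.5%, 10% and 10.6% hid bins of opposite sign in line 1. The first kilobase after the start site, the bin with the largest knockout difference (-3.19 points), had 61 CpGs at 13.1% in parental, 6.22% in line 1 and 13.7% in line 2, and 41 of them had no methylated read in line 1 against 13 in parental and 19 in line 2. From 2 to 3 kb after the start site, 38 CpGs stood at 8.11%, 13.5% and 7.03%.

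That farther bin held the called rises of PAX2, at 2470, 2503 and 2512 bp. Their mean was 5.73% in parental, 57.8% in line 1 and 20% in line 2. They were picked as called higher in line 1, so the gap from parental follows from the choice. Between the lines, 2 of the 3 were called. At 2503 bp, 1 of 26 reads was methylated in parental (3.85%, 0.0973% to 19.6%), 20 of 30 for line 1 (66.7%, 47.2% to 82.7%) and 5 of 36 for line 2 (13.9%, 4.67% to 29.5%). The adjusted Fisher exact p was 5.52e-05 for line 1 against parental and 0.00237 for line 1 against line 2. The called fall of PAX2, at 122 bp, had 7 of 13, 0 of 17 and 8 of 24 methylated reads in parental, line 1 and line 2.

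PAX5, the factor that fixes B cell identity, had 132 compared CpGs on chromosome 9 between 37031476 and 37037476, 117 of them before the start site. Levels climbed towards the start in parental, from a mean of 6.62% between 3 and 2 kb upstream to 17.4% and then 37.8% in the last kilobase. In the same bins line 1 had 0.742%, 15.1% and 23.9%, and line 2 had 3.55%, 14.5% and 27.3%. The bin next to the start site held the largest difference of the knockout mean in PAX5, -12.2 points over 34 CpGs, with the lines 3.33 points apart. Between 3 and 2 kb upstream, 41 of 44 CpGs had no methylated read in line 1, 29 in line 2 and 24 in parental.

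The PAX5 CpG called lower in both lines was at -231 bp, with 27 of 35 reads methylated in parental (77.1%, 59.9% to 89.6%), 3 of 16 for line 1 (18.8%, 4.05% to 45.6%) and 5 of 20 for line 2 (25%, 8.66% to 49.1%). The adjusted Fisher exact p was 0.00427 and 0.0276, and the lines differed by 6.25 points. At -1536 bp the depth was greater, and the 11 of 90 methylated reads of parental stood against 46 of 101 in line 1 and 32 of 107 in line 2. Line 1 was called higher there with an adjusted Fisher exact p of 3.94e-05, and line 2 was not, with 0.147.

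The RefSeq start of PAX5 lies farther along the gene than the start site used here, and 11 of the 30 CpGs of its promoter were matched, 5 of them compared. The 30 bases at chr9:37034280-37034309 on the minus strand hold 2 compared CpGs, which capitals mark, and neither was called in line 1:
PAX5: ggCGagaacaggacatgatctcacatggCG
The first CpG had 5 of 15 methylated reads in parental, 13 of 16 in line 1 and 7 of 12 in line 2. The second had 14 of 18, 13 of 20 and 9 of 14. Over the 5 CpGs the means were 39.0%, 42.6% and 47.0%, so the order of the libraries was not that of the kilobase before the start site.

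PAX8 directs the thyroid and, with PAX2, the kidney. It was the most methylated PAX gene and the thinnest in data, with 55 of 127 CpGs compared on chromosome 2 between 114033498 and 114039498. In parental 50 of the 55 CpGs were over 80%, against 12 in line 1 and 18 in line 2, and the share between 20% and 80% was 9.09%, 74.5% and 67.3%. The knockout mean of 63.6% ± 14.4 (SD, n = 2) lay 26.1 points below parental, and the lines were 20.4 points apart. Its 29 called falls in line 1 made up 52.7% of its CpGs, and no rise was called. In line 2, 44 CpGs were below parental, 18 of them at an unadjusted p under 0.05 (32.7% of its CpGs, beside 5.97% in the series), and 1 was called.

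The PAX8 falls were gathered after the start site. In the bin from 1 to 2 kb, 45 CpGs had means of 87.7% in parental, 47.5% in line 1 and 69.3% in line 2, and 28 were called lower in line 1. Of the 35 bins of the 8 genes with at least 5 CpGs, this was the only one 25 points or more below parental in line 1, and none reached that in line 2. Over the series, 4.15% of 1 kb windows were that far below parental in line 1 and 0.628% in line 2.

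The block from 1318 to 1542 bp held 26 CpGs, all 26 lower than parental in both lines. Their levels ran from 63.6% to 100% in parental, 14.6% to 88.2% in line 1 and 43.8% to 87.3% in line 2, with means of 86.0%, 39.6% and 63.2%. At 25 of the 26, line 2 lay between parental and line 1. The block was drawn around 21 CpGs called lower in line 1, so its fall in line 1 is largely fixed by that choice. Picking low line 1 values also makes it likelier that line 2 lies between. In the block from 1851 to 1983 bp the means of 9 CpGs were 93.7%, 48.7% and 75.6%. The deepest called CpG of the first block, at 1477 bp, had 58 of 69 reads methylated in parental, 18 of 46 in line 1 and 50 of 73 in line 2, with an adjusted Fisher exact p of 5.90e-05 for line 1 (a CpG picked for its depth after the values were seen). The CpG called in both lines, at 1983 bp, had 19 of 20 in parental (95%, 75.1% to 99.9%), 7 of 20 for line 1 (35.0%, 15.4% to 59.2%) and 14 of 30 for line 2 (46.7%, 28.3% to 65.7%). Its adjusted Fisher exact p was 0.00413 for line 1 and 0.0485 for line 2.

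At the PAX8 start site itself methylation was high. The 8 CpGs compared within 500 bp, from -76 to -9 bp, had means of 98.8% in parental, 88.8% in line 1 and 96.2% in line 2. In line 1 each of them had 10 reads, so that a single read is worth much of the difference, and none was called. The 30 bases at chr2:113278980-113279009 on the minus strand show this nearly fully methylated stretch, with the CpGs measured in capitals:
PAX8: agccagccaatcCGCGgcctaCGagcctCG
Its 4 CpGs ranged from 95% to 100% in parental, 70.0% to 100% in line 1 and 90.9% to 100% in line 2. Among the 72 PAX8 CpGs under 10 reads in some library, the pooled level was 91.6% in parental (581 reads), 76.8% in line 1 (280 reads) and 89.2% in line 2 (731 reads).

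The number of reads over PAX8 also differed between the libraries. As a share of a library's total, reads over all PAX8 CpGs in line 1 were 0.660 times those of parental, and in line 2 0.879 times. PAX3, on the same chromosome, had 1.30 and 1.08 times the parental share, and PAX6 had 1.63 and 1.25 times. The other five genes lay between 0.892 and 1.19. The part of these read shares in the methylation differences was not tested.

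To set the genes beside regions of like width, all 26616 non-overlapping 6 kb windows of the series with at least 20 CpGs were measured the same way. Their median difference from parental was -1.27 points in line 1, with a 5th percentile of -15.1 and a 95th of 2.51, and -0.699 in line 2. PAX8 lay at -36.3 points in line 1 and -15.9 in line 2. As large a difference as in PAX8 was met in 0.128% of all windows for line 1, and in 0.50% for line 2. Among the 5065 windows at 80% or more in parental, 21 (0.415%) reached the line 1 difference of PAX8 and 37 (0.731%) that of line 2. Windows 25 points or more below parental made up 0.736% in line 1 and 0.0676% in line 2, and PAX8 was the only PAX gene there, in line 1 only. Of the remaining genes, the difference of PAX1 in line 1 was reached by 12% of windows and that of PAX2 by 47.2%, with the others between.

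**Figure D4:**
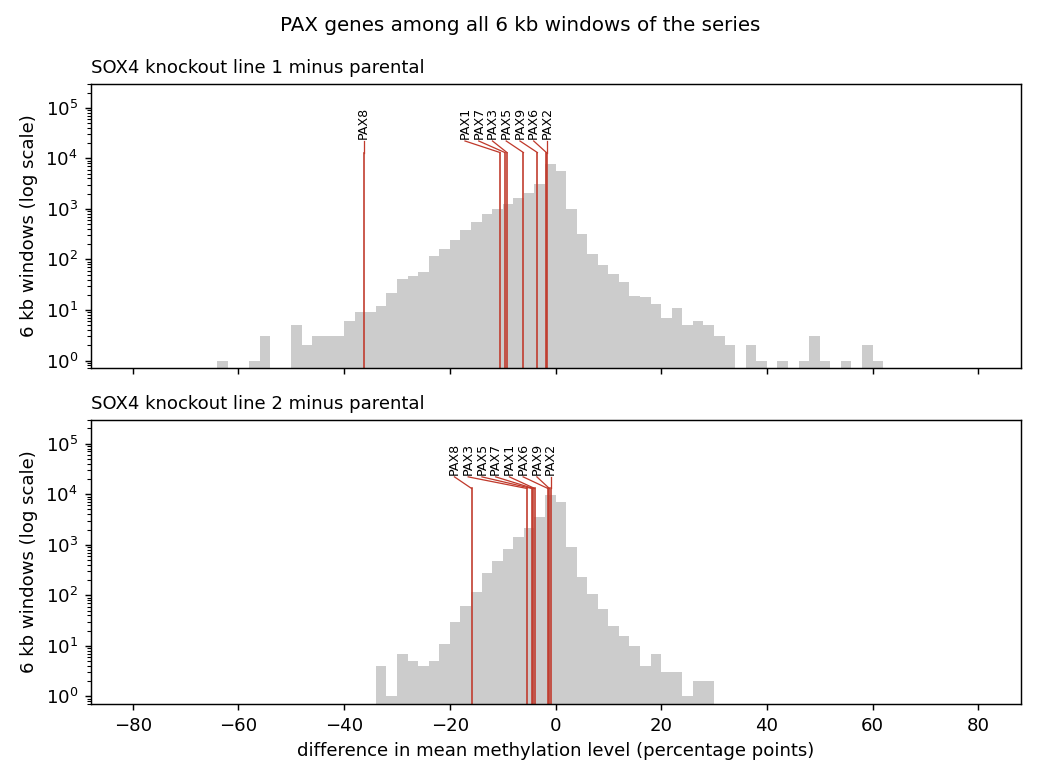
Number of 6 kb windows of the series (y axis, log scale) by difference in mean methylation level from parental in percentage points (x axis), for line 1 above and line 2 below; red lines mark the 8 PAX genes. PAX8 lies at -36.3 points in line 1 and -15.9 in line 2, in the left tail of the windows, while the other genes lie between -10.5 and -0.926 points.

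PAX3 and PAX7 share the neural crest and skeletal muscle, where PAX7 marks satellite cells. PAX3 had 91 compared CpGs on chromosome 2 between 223160715 and 223166715, with 3 neighbouring CpGs called lower in line 1 at the start site. At -11, -3 and 3 bp, line 1 had 0 methylated reads of 22, 21 and 21, while parental had 7, 10 and 6 of 15, and line 2 had 5 of 23, 9 of 22 and 7 of 24. All 3 CpGs were called lower in line 1, none in line 2. For the middle one the intervals were 38.4% to 88.2% in parental, 0% to 16.1% in line 1 and 20.7% to 63.6% in line 2, and the adjusted Fisher exact p for line 1 was 0.000541. Over the 6 CpGs from 20 bp before to 40 bp after the start site, 32 of 81 reads were methylated in parental, 1 of 133 in line 1 and 29 of 139 in line 2. That stretch was set around the 3 called CpGs after the values were seen, so its counts describe them and test nothing.

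The 30 bases that end beside this start, at chr2:222299006-222299035 on the minus strand, show the first pair of these CpGs in capitals:
PAX3: taaaagaactaataaatgctccCGagccCG
Their levels were 33.3% and 46.7% in parental, 0% for both in line 1, and 19.0% and 21.7% in line 2. Across the 17 compared CpGs of the PAX3 promoter the means were 35.9%, 15.5% and 26.5%. The kilobase before the start site held the largest difference of the knockout mean in the gene, -12.9 points over 21 CpGs, with the lines 6.10 points apart. From 1 to 2 kb after the start site, in contrast, 19 CpGs had 68.0%, 66.9% and 68.0%. A single rise was called in PAX3, at 811 bp, with 23 of 45, 52 of 62 and 37 of 65 methylated reads in parental, line 1 and line 2, and an adjusted Fisher exact p of 0.0118 in line 1. CCDC140 starts within 3 kb of PAX3 on the opposite strand in RefSeq, as LOC105370455 does near PAX9 and PAX6-AS1 near PAX6, so CpGs there belong to the start regions of both genes.

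PAX7, on chromosome 1 between 18954500 and 18960500, had 110 compared CpGs with 12 called falls and 5 called rises in line 1. The rises and 5 of the falls lay together from 1 to 2 kb after the start site. From 1277 to 1425 bp, 12 CpGs had means of 37.9% in parental, 17.6% in line 1 and 31.5% in line 2. At 1277, 1346 and 1349 bp, line 1 had 0 methylated reads of 58, 35 and 36, while parental had 28 of 62, 20 of 44 and 27 of 40, and line 2 had 38 of 112, 20 of 64 and 25 of 63. The last of them was the largest fall of PAX7, with an adjusted Fisher exact p of 1.65e-08 against parental and 0.000499 against line 2. Directly after it, from 1462 to 1508 bp, 4 CpGs had 33.4% in parental, 58.6% in line 1 and 48.5% in line 2, and 3 were called higher. At 1462 bp the methylated reads were 2 of 29 in parental, 18 of 33 in line 1 and 9 of 37 in line 2, with an adjusted Fisher exact p of 0.00269 for line 1. The bin from 1 to 2 kb thus held 5 falls and 5 rises, and its means of 36.5%, 30.2% and 32.1% differed far less than its CpGs.

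Upstream of PAX7 the calls went one way. The kilobase before the start site held the largest difference of the knockout mean in the gene, -10.4 points over 34 CpGs, with means of 46.0% for parental, 32.0% for line 1 and 39.1% for line 2. All 21 CpGs of its RefSeq promoter were matched and 19 compared, with means of 61.6% in parental, 39.2% in line 1 and 49.7% in line 2. In the block from -291 to -124 bp, 10 CpGs had 73.4%, 47.0% and 58.4%, and 5 were called lower in line 1. The neighbours inside it, at -277 and -267 bp, were at 100% in parental, 97.8% and 92.3% in line 1, and 100% and 91.7% in line 2, so some CpGs of the block were high in every library. The 30 bases at chr1:18630686-18630715 on the plus strand show CpGs at its edge, with the 3 measured in capitals:
PAX7: aaaaaaatattCGttggCGatttcttttCG
These 3 CpGs had 68.0%, 72% and 96% in parental, 34.7%, 36.0% and 46.9% in line 1, and 51.9%, 51.9% and 76.9% in line 2. Line 2 lay between parental and line 1 at each of them. The printed runs of PAX3, PAX6 and PAX7 were picked for their CpGs called in line 1. A line 1 difference in them therefore follows from the choice and stands for no whole promoter.

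**Figure D5:**
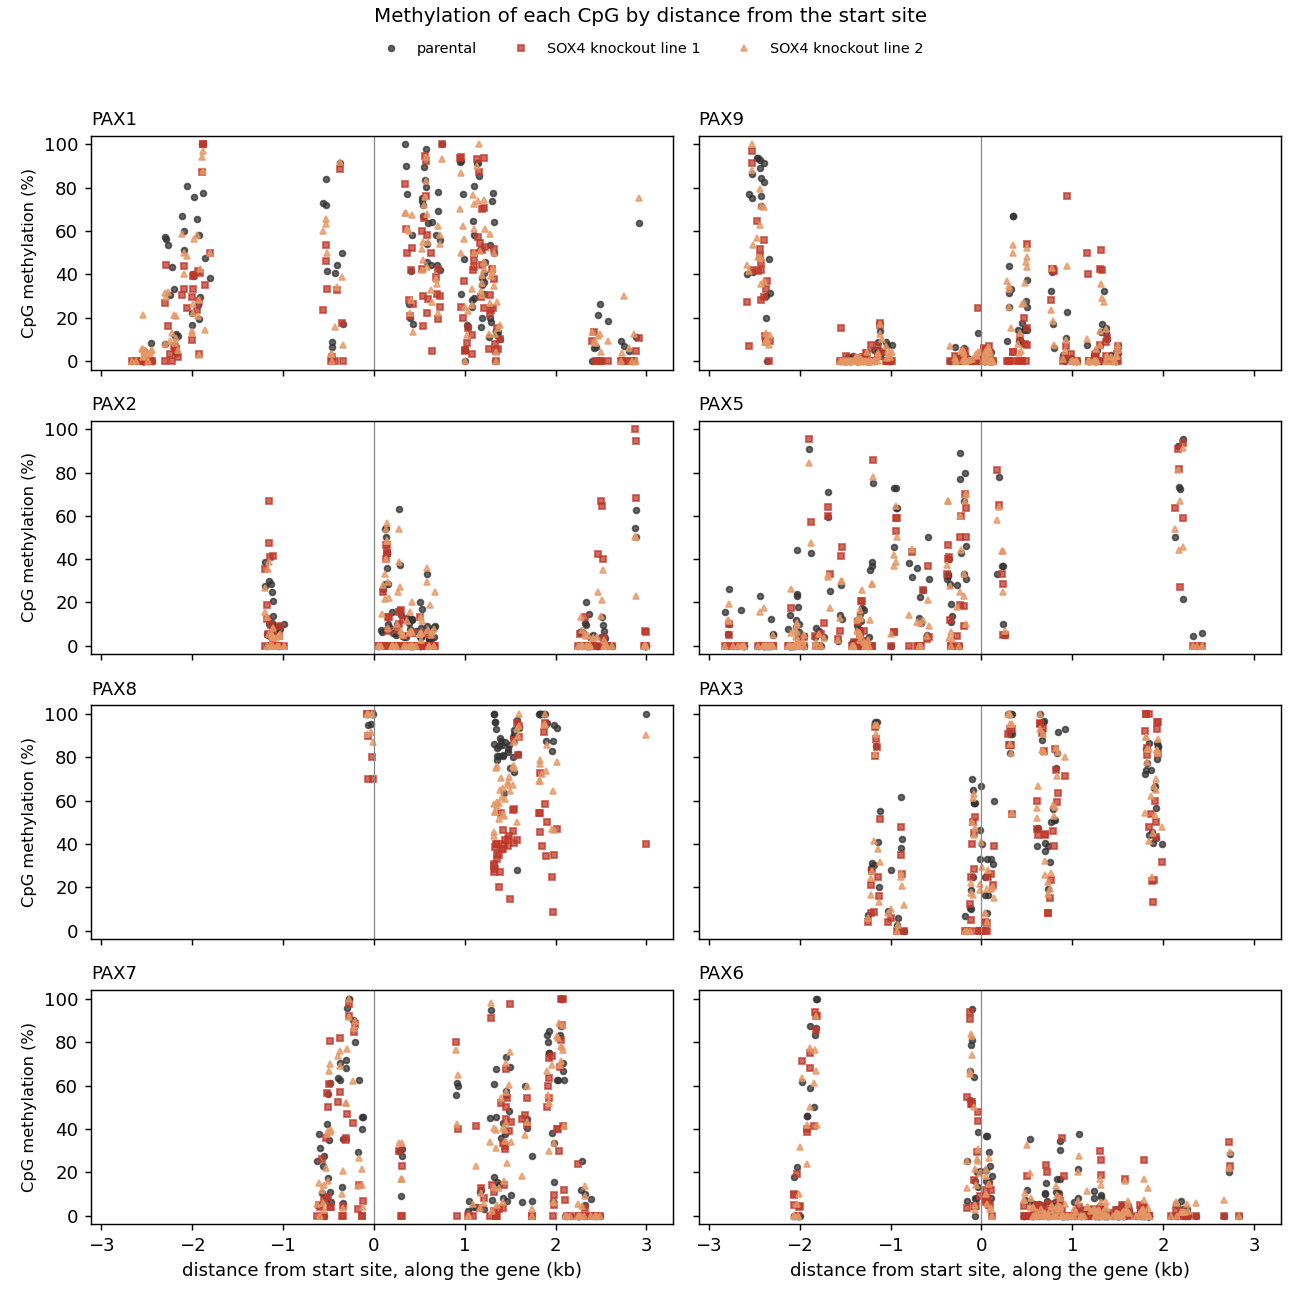
Methylation level in percent (y axis) of every compared CpG by distance from the start site in kb, counted along the direction of the gene (x axis), 1 panel for each gene and 1 colour and marker for each library. The PAX8 CpGs between 1 and 2 kb separate by library (means 87.7%, 47.5% and 69.3%), while those of PAX9 between 2 and 1 kb upstream lie near 0 in all libraries.

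PAX6, the factor of the eye and of pancreatic islet cells, had the most compared CpGs, 173 on chromosome 11 between 31836509 and 31842509. The 139 CpGs after its start site had means of 5.33% in parental, 3.47% in line 1 and 4.29% in line 2, and the 34 before it 39.9%, 38.6% and 36.7%. Differences between libraries were therefore small on either side of a large step in level. The bin with the largest difference of the knockout mean lay from 2 to 1 kb upstream, -5.05 points over 11 CpGs at 65.5%, 63.9% and 56.9%, and the lines were 6.95 points apart there. Line 1 was called lower at 5 CpGs and higher at 2, and line 2 at none. The largest fall of line 1, at -81 bp, had 16 of 25 reads methylated in parental (64.0%, 42.5% to 82%), 7 of 43 for line 1 (16.3%, 6.81% to 30.7%) and 16 of 32 for line 2 (50%, 31.9% to 68.1%), with an adjusted Fisher exact p of 0.00383. At 886 bp line 1 alone was methylated, with 14 of 39 reads against 0 of 31 in parental and 0 of 47 in line 2, where the interval reached 11.2% and 7.55%. Only 21 bp before it, at 865 bp, line 1 had 0 of 47 reads where parental had 12 of 35 and line 2 had 4 of 50.

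The 30 bases at chr11:31818041-31818070 on the minus strand carry the -81 bp CpG as the last of 3 in capitals:
PAX6: tCGgCGcagagctgtgcccaactctagcCG
Their levels were 81.0%, 95.5% and 64.0% in parental, 51.4%, 52.6% and 16.3% in line 1, and 74.2%, 82.8% and 50% in line 2. Over all 18 compared CpGs of this PAX6 promoter, 1 of the 9 listed, the means were close, 35.1%, 32.3% and 35.8%. Within that promoter, the CpGs at -128 and -124 bp had 31 of 33 and 30 of 33 methylated reads in line 1, 10 of 15 and 8 of 15 in parental, and 16 of 24 and 17 of 26 in line 2, and neither was called.

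The promoters themselves differed in make-up. For the PAX genes other than PAX1, GC content of the promoter ran from 51.0% in PAX9 to 66.7% in PAX2, where the median of 35116 RefSeq promoters of the same length was 58.7%. The ratio of CpGs observed to those expected from base content was 0.993 in PAX9, 0.949 in PAX5, 1.07 in PAX7, 0.770 in PAX6, 0.673 in PAX3, 0.578 in PAX2 and 0.483 in PAX8, with a median of 0.579 over all promoters. PAX8 had the lowest ratio together with the highest parental level of the promoters compared (98.8%), while PAX7, with the highest ratio, stood at 61.6% in parental and PAX9 at 2.02%. The PAX2 promoter was matched at 15 of its 19 CpGs, none with 10 reads in all libraries.

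By the mean absolute difference of parental level over shared 1 kb distance bins, the smallest value was that of PAX2 and PAX9, 6.37 points over 2 shared bins. PAX5 and PAX7 followed with 8.89 points over 3 bins, and PAX1 and PAX3 with 11.6 over 4. The pairs were compared over different bins, so the order is a loose one, and the PAX9 bin from 3 to 2 kb upstream, at 61.5%, has no PAX2 counterpart. Within the subgroups, PAX2 and PAX5 differed by 20.8 points over 3 bins, PAX3 and PAX7 by 22.2 over 3, PAX1 and PAX9 by 42.9 over 5, and PAX5 and PAX8 by 61.0 over 1. At 42 of the 55 PAX8 CpGs both lines were below parental and at 3 both were above it. The same counts were 64 and 22 of 140 in PAX1, 58 and 17 of 110 in PAX7, 50 and 14 of 91 in PAX3, 64 and 18 of 132 in PAX5, 57 and 26 of 173 in PAX6, 49 and 29 of 159 in PAX9, and 43 and 12 of 120 in PAX2. Over the whole series, both lines were below parental at 712072 of 2238764 CpGs and above it at 345852. For the 980 PAX CpGs together the counts were 427 and 141. Both comparisons use the same parental library, so these counts describe the 3 libraries and test nothing.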

How the data were processed

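Genomic DNA was captured with the TruSeq Methyl Capture EPIC kit, treated with bisulfite, amplified and sequenced. The deposited files give, for each CpG cytosine and strand, raw counts of total, context and methylated reads, and the authors' methylation level, a fraction equal to methylated over context reads. Builds named in the submitters' processing notes are GRCh37 and hg19. The aligner, the caller and any removal of duplicates are not given in the sources used here. Incomplete conversion would raise levels, and PCR duplicates would narrow intervals, so exact Clopper-Pearson 95% intervals cover counting error only. Context reads totalled 104702738 in parental, 96987706 in line 1 and 133170621 in line 2.

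Strands were summed at the G of each CpG, and at least 10 reads were required in each library. Fisher tests were run on all 2238764 CpGs, gene and bin levels are unweighted means over CpGs, and bins needed 5 CpGs. The Fisher step was tested on simulated data with 200 CpGs raised by 45 points in both lines. Of these, 38.5% were called in both lines and 52.5% in 1 line or more. With so few CpGs changed, these shares do not carry over directly to the real calls. A CpG that was not called may still differ. For each gene the text names the CpG with the largest called rise and fall, ranked by the smaller difference where both lines were called and otherwise by line 1, and the bin with the largest knockout difference. Members, lists and rules were chosen with earlier results of these data known. Alternatives varied coverage (5, 20), threshold (10, 50 points; adjusted p under 0.01), distance (1 kb, 5 kb, 250 bp), weighting, depth and lines. A planned list of PAX partner genes was not analysed here, since no annotation of the files' build was at hand. Promoter sequences are RefSeq, GRCh38.p14, matched by CpG spacing without converting coordinates. Software was Python 3.11.15 with numba 0.67.0, scipy 1.17.1, pandas 2.3.3 and numpy 2.4.6.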

Additional observations from a re-analysis of the deposited data

How the results depend on the processing

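Over 27 results there were 185 values under other settings, and 136 stayed close to the reported value. Close meant a count within 1.5 times, or a mean within 1 SD of the knockout lines, and the other 49 moved. Leaving out 1 knockout line could not move a mean by this rule, since that shift is always under the SD of 2 lines. Leaving out CpGs over 500 reads changed none of the means. The 136 are therefore partly fixed by the rule. Only the PAX8 mean could be marked as turned in direction, and it was not. Of 103 alternative values of 17 signed differences, 101 kept the sign of the reported value. The exceptions were PAX2 with pooled reads, 0.262 points above parental, and PAX9 within 250 bp of its start site, 0.501 points above. Near the start sites, PAX7 moved from -10.1 points within 500 bp to -25.5 within 250 bp. PAX5 within 500 bp moved from -5.57 over 24 CpGs to -16.7 with a coverage of 20, which left a single CpG, at -273 bp. Within 1 kb of the start site the knockout difference was -13.4 points in PAX1, -3.30 in PAX2, -9.60 in PAX5, -3.37 in PAX6 and -6.34 in PAX8, a radius that leaves out the PAX8 bin from 1 to 2 kb. For PAX6 it was -2.42 points with a coverage of 5, -1.31 with a coverage of 20, -1.36 with pooled reads and -3.28 within 5 kb.

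Counts of called CpGs depended on the threshold, and each pair below gives line 1 against parental first (higher, then lower), then the other counts that moved. With a difference of 50 points they were 4 and 33, with 1 lower in line 2, 1 lower in both lines, and 1 higher and 4 lower between the lines. With an adjusted p under 0.01 they were 10 and 49, with 1 lower in line 2, 1 lower in both, and 2 higher and 8 lower between the lines. With 10 points, 1 CpG was higher in line 2, 1 in both lines and 7 in line 1 than in line 2. Thinned to the smallest depth, 53 were lower in line 1, 1 in line 2 and 1 in both, and 2 were higher and 6 lower between the lines. Within 1 kb there were 4 and 29, with 1 lower in line 2, 1 in both, and 2 higher and 2 lower between the lines. Within 5 kb, 13 were lower and 1 higher in line 2, 10 lower and 1 higher in both, and 22 lower between the lines. Leaving out PAX8, chosen after the data were seen, left 55 lower in line 1. At 10 points, 10 of the 35 bins were lower in line 1 and 3 in line 2. With a single knockout line left, the count for both lines ran from 5 to 84 lower and from 0 to 17 higher, since it is then that line's own count: line 1 supplied most of the calls. No paired analysis was possible because only 1 parental library exists here. The limits are 1 library for each line and a median depth of 26 to 34 reads, at which a single CpG must differ widely to be called.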
